A study of Cricetulus griseus with 4 samples.

Results

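The comparison of 25-hydroxyvitamin D3 with DMSO in CHO-K1 cells comprised 2 of the 4 libraries of the series, 1 library per treatment, chosen by their treatment labels. CHO-K1 is an established line derived from Chinese hamster ovary, and each library was made with a TruSeq mRNA kit from cells grown in 6-well plates. One library is of cells given 25-hydroxyvitamin D3 and the other of cells given the solvent DMSO, each for 24 hr after 24 hr of plating. All cells of the series, the DMSO control included, stood in a mixture of Ham's F-12 and DMEM with 5% lipid-depleted serum, 50 µM of the statin compactin and 50 µM lithium mevalonate, so the control was itself deprived of sterols. The other 2 libraries, of a compound that selectively inhibits SREBP and of one that selectively activates the VDR under the same conditions, are given beside these for the genes described. No dose of any compound is used here. Fewer cells and less RNA per cell cannot be told apart in bulk libraries, and with 1 library per treatment no difference has a replicate check and none could be tested across conditions.

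25-Hydroxyvitamin D3 is the main circulating form of vitamin D. It binds the vitamin D receptor (VDR), a nuclear receptor that acts with a retinoid X receptor partner on target genes such as Cyp24a1, and it also inhibits the SREBPs, sterol-regulated transcription factors that are cut from the membrane when sterols are scarce and then drive genes of cholesterol and fatty acid synthesis. Compactin blocks the mevalonate pathway, and together with lipid-depleted serum it is known to keep SREBPs active in cultured cells. The comparison asks what the dual agent does to the mRNA of cells whose SREBP pathway is switched on.

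Total counts were 21335614 with 25-hydroxyvitamin D3 and 21353277 in DMSO, and 11426 and 11917 genes had at least 10 counts in these libraries. Values are CPM (counts scaled to a common library total) after TMM scaling, and differences are in log2(CPM + 1), 25-hydroxyvitamin D3 minus DMSO. A gene was measured when it had at least 10 counts and 1 CPM in either library, and a difference of at least 1 in size is called at least 2-fold higher or lower. Of 20754 genes, 11482 were measured, and 1332 (11.6%) were at least 2-fold higher with 25-hydroxyvitamin D3 while 1403 (12.2%) were at least 2-fold lower. Counts over the gene lists below stand beside these shares, and a list near them does not differ from measured genes in general. Upper quartile scaling, which moved the median of all genes from 0.04 to -0.10, gave 1000 higher and 1688 lower. A range after the median of a gene list gives its lowest and highest value over 12 alternatives of scaling, pseudocount and filter, and is given where the median moved by more than 1.5 times. In the main scaling 4-fold was passed by 161 genes on the high side and 279 on the low side, and 8-fold by 35 and 71. The shares differed with the level of the gene. Among the 2721 genes above 100 CPM on average, 15.8% were higher and 8.12% lower with 25-hydroxyvitamin D3, whereas of the 1101 genes between 1 and 5 CPM 3.72% were higher and 25.0% lower. Intervals beside folds are 95% Clopper-Pearson intervals of the counts in the 2 libraries; they cover counting error only and treat reads as independent.

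**Figure D1:**
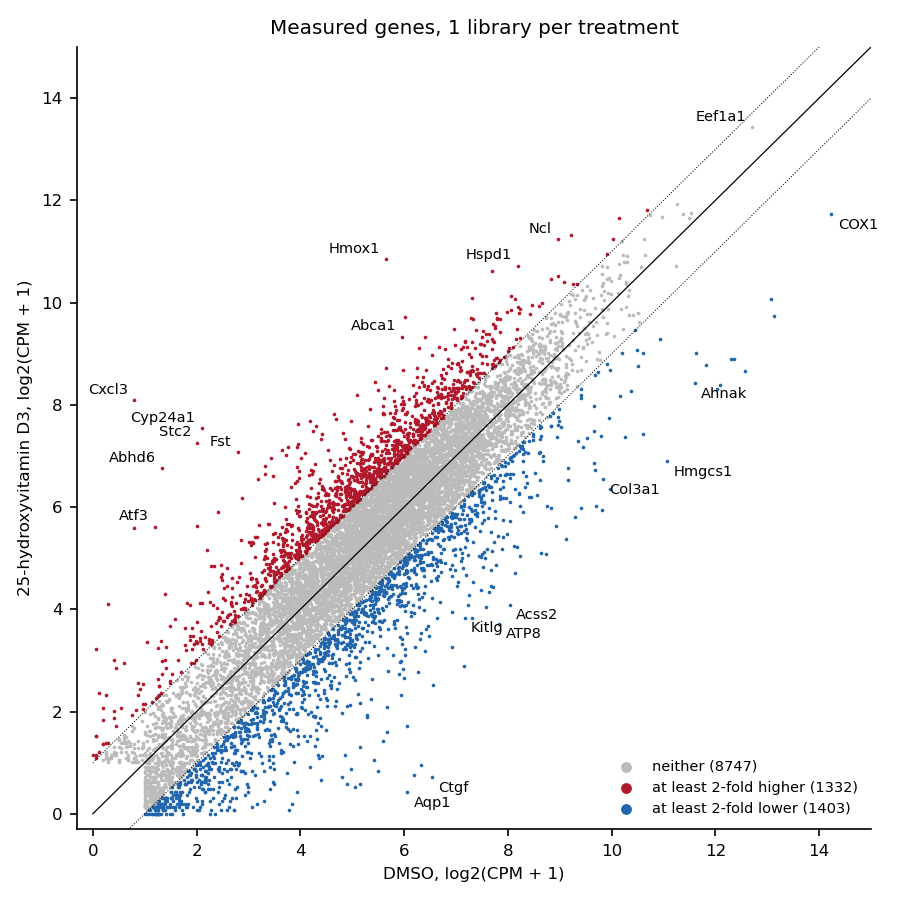
Each point is 1 of the 11482 measured genes, with log2(CPM + 1) in the 25-hydroxyvitamin D3 library on the vertical axis and in the DMSO library on the horizontal axis. The solid line marks equal values and the dotted lines the 2-fold limits; Cxcl3, Cyp24a1 and Hmox1 lie far above the upper limit, and Aqp1, Ctgf and Hmgcs1 far below the lower one.

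**Figure D2:**
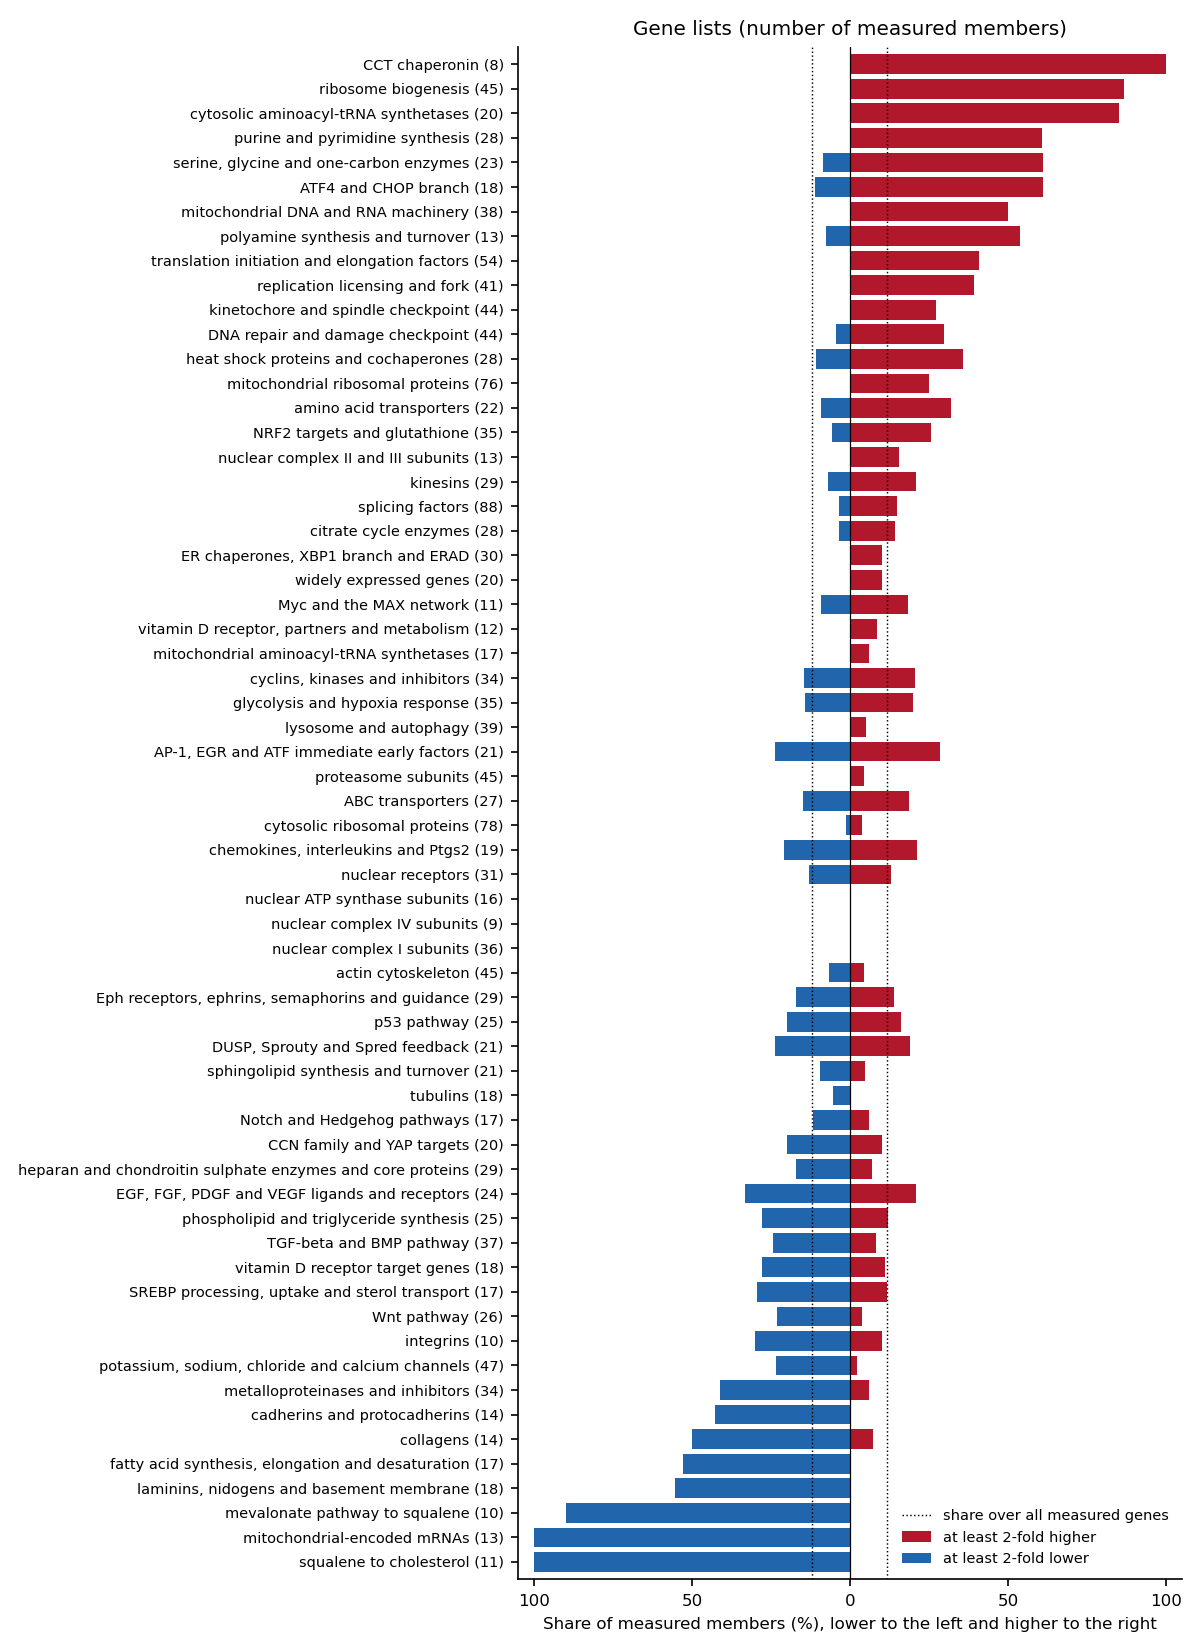
Bars give, for gene lists with at least 8 measured members, the share of members at least 2-fold lower (left, blue) and at least 2-fold higher (right, red) with 25-hydroxyvitamin D3 against DMSO, sorted by the difference of the shares. The dotted lines stand at 12.2% and 11.6%, the shares over all measured genes; all 8 CCT chaperonin subunits were higher, and all 11 enzymes from squalene to cholesterol and all 13 mitochondrial-encoded mRNAs were lower.

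The enzymes that make cholesterol were lower with 25-hydroxyvitamin D3 along the whole route. Of 10 enzymes from acetoacetyl-CoA to squalene, 9 were at least 2-fold lower and 0 higher, where 12.2% of all measured genes were lower and 11.6% higher, with a median difference of -2.35 where the median of all measured genes was 0.04. The exception was Ggps1, the geranylgeranyl diphosphate synthase that leads away from sterols, with 61.5 CPM with 25-hydroxyvitamin D3 against 41.6 CPM in DMSO. The steps differed in size. Hmgcs1, a synthase early in the pathway, had the largest difference of the list, with 118 CPM with 25-hydroxyvitamin D3 against 2147 CPM in DMSO. The mevalonate diphosphate decarboxylase Mvd was 11.9-fold lower, but the mevalonate kinase Mvk 4.02-fold and the squalene synthase Fdft1 3.16-fold.

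All 11 measured enzymes between squalene and cholesterol were at least 2-fold lower, with a median of -2.27. The lanosterol synthase Lss had 61.8 CPM with 25-hydroxyvitamin D3, 147 with the SREBP inhibitor, 601 with the VDR activator and 677 in DMSO, and was 10.96-fold lower, the isomerase Ebp 9.38-fold and the lathosterol oxidase Sc5d 7.03-fold. Per length, squalene epoxidase, Sqle, was the most abundant of these mRNAs in both libraries, at 140.1 FPKM with 25-hydroxyvitamin D3 against 680.3 FPKM in DMSO, and the lanosterol demethylase Cyp51a1 came next, at 88.3 FPKM with 25-hydroxyvitamin D3 against 373 FPKM in DMSO. The smallest difference in log2(CPM + 1) was that of Tm7sf2, a sterol reductase near the measuring limit, with 0.834 CPM with 25-hydroxyvitamin D3 against 2.86 CPM in DMSO, and it was short of 2-fold with FPKM and with a pseudocount of 5. A row whose description names the same enzyme as Nsdhl, sterol-4-alpha-carboxylate 3-dehydrogenase, stood beside it with 17.6 CPM with 25-hydroxyvitamin D3 against 92.4 CPM in DMSO, so reads may be split between these copies.

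Uptake and trafficking of sterols did not form a uniform group. Of 17 measured genes, 5 were at least 2-fold lower and 2 higher (median -0.54). The share higher, 11.8%, was near the 11.6% of all measured genes, and 29.4% were lower, beside 12.2%. Scarb1, which binds high-density lipoprotein, was 2.39-fold lower, and Npc2, which carries cholesterol inside the lysosome, 2.09-fold. Npc1, its partner in the lysosomal membrane, went the other way by less than the limit, with 135 CPM with 25-hydroxyvitamin D3 against 72.0 CPM in DMSO. The 2 higher members act on excess cholesterol. Soat1, which esterifies cholesterol for storage, had 250.0 CPM with 25-hydroxyvitamin D3, 153 with the SREBP inhibitor, 75.8 with the VDR activator and 73.4 in DMSO, and was 3.40-fold higher (95% interval 3.22 to 3.60). The efflux pump gene Abca1 had 644 CPM with 25-hydroxyvitamin D3, 599.9 with the SREBP inhibitor, 46.7 with the VDR activator and 61.4 in DMSO, so the 2 libraries with lowered sterol enzymes held the high values. Of the genes that process SREBPs, the escort and protease genes did not pass the limit. Another gene of SREBP control, not reported here, was among the 5 lower members. Scap, the escort that senses sterols, had 160.4 CPM with 25-hydroxyvitamin D3 against 185 CPM in DMSO. The protease genes Mbtps1 and Mbtps2 had 310.0 CPM with 25-hydroxyvitamin D3 against 345 CPM in DMSO and 104.8 CPM with 25-hydroxyvitamin D3 against 53.9 CPM in DMSO.

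Fatty acid genes were lower at several steps but not at all. Of the 17 members measured, 9 passed the limit downward and 0 upward (median -1.39, range -1.54 to -0.66). The lower members included the supply of cytosolic acetyl-CoA, with the citrate carrier Slc25a1 at 59.5 CPM with 25-hydroxyvitamin D3 and 158 in DMSO, the ATP citrate lyase Acly at 434 CPM with 25-hydroxyvitamin D3 and 1457 in DMSO and the acetyl-CoA synthetase Acss2 at 15.99 CPM with 25-hydroxyvitamin D3 and 261 in DMSO. The carboxylase Acaca, which commits acetyl-CoA to fatty acids, did not differ by the limit, with 432 CPM with 25-hydroxyvitamin D3, 460.3 with the SREBP inhibitor, 437 with the VDR activator and 461 in DMSO. The row described as acyl-CoA desaturase 2 (Scd2), which puts a double bond into saturated fatty acids, had 171 CPM with 25-hydroxyvitamin D3, 697 with the SREBP inhibitor, 1280.4 with the VDR activator and 1554 in DMSO, and was 9.07-fold lower (95% interval 8.76 to 9.39). Its paralog Scd1 had 587 CPM with 25-hydroxyvitamin D3 against 736 CPM in DMSO, but reads of these near copies may be split by the counting. Citrate cycle enzymes held 1 lower gene, Idh1, the cytosolic NADP-dependent isocitrate dehydrogenase, with 63.6 CPM with 25-hydroxyvitamin D3, 231 with the SREBP inhibitor, 396 with the VDR activator and 428 in DMSO.

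Among genes of phospholipid and triglyceride synthesis 3 of 25 measured were higher and 7 lower, and the median of 0.03 turned to -0.11 under upper quartile scaling and was also below 0 with equal totals and with FPKM. The 12% higher were near the 11.6% of all measured genes, and the 28% lower stood beside 12.2%. The 2 enzymes of the last step of triglyceride synthesis differed in opposite directions. Dgat2 had 92.8 CPM with 25-hydroxyvitamin D3, 24.2 with the SREBP inhibitor, 10.6 with the VDR activator and 8.06 in DMSO, and was 11.5-fold higher (95% interval 9.86 to 13.5), whereas Dgat1 had 17.7 CPM with 25-hydroxyvitamin D3 against 42.2 CPM in DMSO. Lpin1, a phosphatidate phosphatase and SREBP target, was 7.16-fold lower. In phosphatidylethanolamine and phosphatidylcholine synthesis, Pcyt2 was 2.99-fold and Pcyt1b 4.44-fold lower, Chka, which phosphorylates choline, was 2.42-fold higher, and Pcyt1a had 38.3 CPM with 25-hydroxyvitamin D3 against 33.7 CPM in DMSO. Of 21 sphingolipid genes, Ugcg, the glucosylceramide synthase, and Sphk1, a sphingosine kinase, were 2.61-fold and 2.43-fold lower, and the ceramide synthase Cers6 was 2.55-fold higher. Both sphingolipid shares, 9.52% lower and 4.76% higher, were below the 12.2% and 11.6% of all measured genes.

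The vitamin D receptor axis showed 1 large difference. Cyp24a1, the hydroxylase that inactivates vitamin D, had 185 CPM with 25-hydroxyvitamin D3, 5.99 with the SREBP inhibitor, 258 with the VDR activator and 3.27 in DMSO, and was 56.5-fold higher (95% interval 44.7 to 72.5). The high values were those of both agents that act on the VDR. Vdr had 42.6 CPM with 25-hydroxyvitamin D3, 38.5 with the SREBP inhibitor, 37.4 with the VDR activator and 48.0 in DMSO, the partners Rxra and Rxrb had 57.7 CPM with 25-hydroxyvitamin D3 and 83.1 in DMSO and 63.9 CPM with 25-hydroxyvitamin D3 and 50.2 in DMSO, and no other of the 12 measured genes passed 2-fold (median -0.16, range -0.30 to -0.13). Of 18 measured genes listed as VDR targets in other cells, 2 were higher and 5 lower, with a median of -0.67, range -0.80 to -0.15. Of these targets 11.1% were higher, near the 11.6% of all measured genes, and 27.8% lower, beside 12.2%. Serpinb1, an inhibitor of leukocyte proteases, was 7.50-fold lower (95% interval 6.55 to 8.62), with 11.7 CPM with 25-hydroxyvitamin D3, 61.1 with the SREBP inhibitor, 80.9 with the VDR activator and 87.6 in DMSO. Txnip, which binds thioredoxin, was 2.27-fold lower, and Il1rl1, a receptor of interleukin 33, had 0.589 CPM with 25-hydroxyvitamin D3 against 3.55 CPM in DMSO. Spp1, osteopontin, had 0.0981 CPM with 25-hydroxyvitamin D3 against 1.29 CPM in DMSO, which are 2 and 28 counts. Il1rl1 and Spp1 were both short of the limit with FPKM and with a pseudocount of 5. The 2 higher members were Abcb1, a drug efflux pump described with its family, and Hbegf, a ligand of the EGF receptor, at 2.60-fold but short of 2-fold with a pseudocount of 5. Cdkn1a, an inhibitor of cyclin-dependent kinases often named as a VDR target, had 33.7 CPM with 25-hydroxyvitamin D3, 69.4 with the SREBP inhibitor, 59.7 with the VDR activator and 53.7 in DMSO. The library of the VDR activator thus had the higher Cyp24a1 value of both agents, but a Serpinb1 value near that of DMSO.

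**Figure D3:**
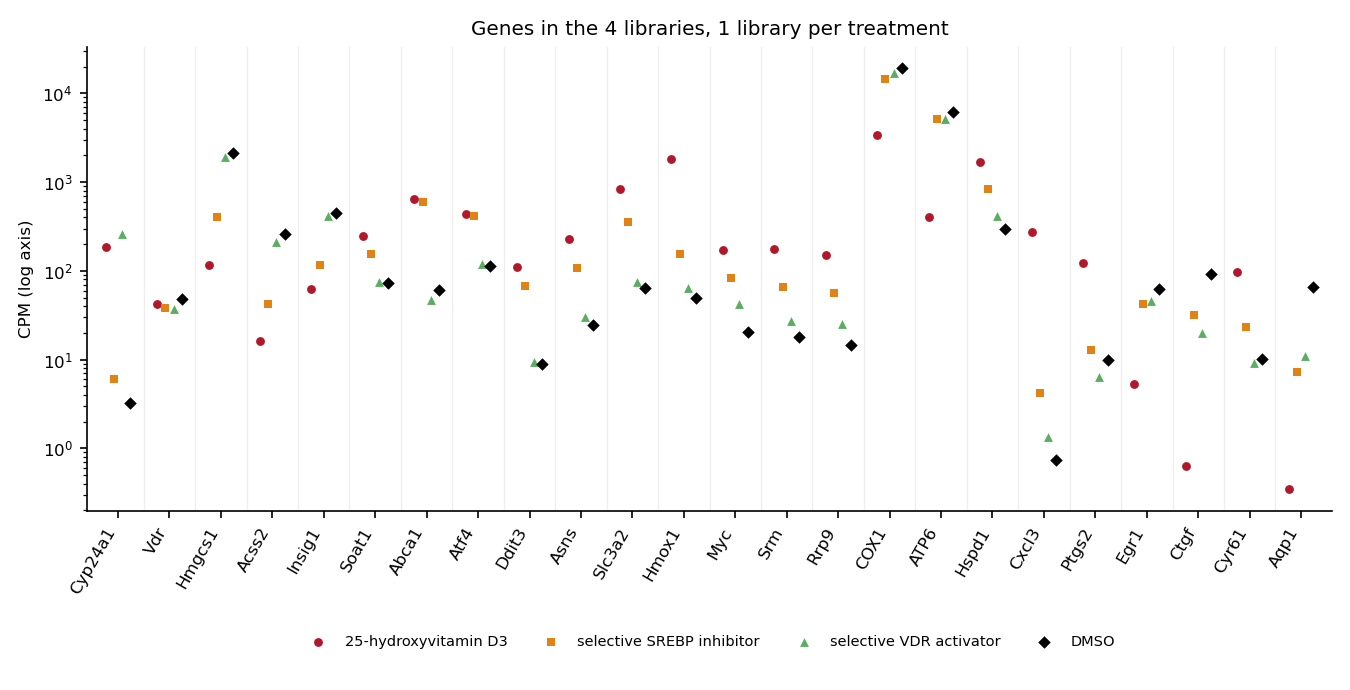
Points give the CPM of 24 genes on a log axis in the libraries of 25-hydroxyvitamin D3 (circles), the selective SREBP inhibitor (squares), the selective VDR activator (triangles) and DMSO (diamonds), 1 library each, so no error bars can be drawn. Cyp24a1 was high in 2 libraries, and COX1 and ATP6 were low only in the library of 25-hydroxyvitamin D3, among the 4 libraries shown.

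Genes of the branch run by ATF4, a transcription factor whose mRNA is translated when the initiation factor eIF2 is phosphorylated, were mostly higher. The limit was passed upward by 11 of 18 members and downward by 2 (median 1.27). Atf4 itself had 433 CPM with 25-hydroxyvitamin D3, 421 with the SREBP inhibitor, 120.3 with the VDR activator and 114 in DMSO, and was 3.78-fold higher (95% interval 3.62 to 3.96). Ppp1r15a, which directs the dephosphorylation of eIF2, had 192 CPM with 25-hydroxyvitamin D3, 44.8 with the SREBP inhibitor, 18.5 with the VDR activator and 18.6 in DMSO, whereas its constitutive relative Ppp1r15b had 163 CPM with 25-hydroxyvitamin D3 against 119 CPM in DMSO. Asns, the asparagine synthetase, was 9.31-fold higher (95% interval 8.51 to 10.2), and Sesn2, an inhibitor of mTORC1 signalling, 5.36-fold higher (95% interval 4.53 to 6.36). The pseudokinase gene Trib3 had 213 CPM with 25-hydroxyvitamin D3, 222 with the SREBP inhibitor, 45.6 with the VDR activator and 55.2 in DMSO, so the SREBP inhibitor library lay as high as that of 25-hydroxyvitamin D3. Atf5 was higher with the SREBP inhibitor (135 CPM) than with 25-hydroxyvitamin D3 (46.2 CPM), against 20.8 CPM in DMSO.

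None of the 4 kinases that phosphorylate eIF2 was at least 2-fold higher. Eif2ak2, the kinase activated by double-stranded RNA, was 3.24-fold lower (95% interval 2.59 to 4.10). Eif2ak3, the kinase of the endoplasmic reticulum, had 37.3 CPM with 25-hydroxyvitamin D3 against 72.1 CPM in DMSO. Eif2ak4, the kinase that senses uncharged tRNA, had 78.8 CPM with 25-hydroxyvitamin D3 against 64.7 CPM in DMSO, and Eif2ak1, the heme-regulated kinase, had 165 CPM with 25-hydroxyvitamin D3 against 214 CPM in DMSO. The other lower member of the branch was Ddit4, an mTORC1 inhibitor that other stresses also induce, with 4.37 CPM with 25-hydroxyvitamin D3, 8.70 with the SREBP inhibitor, 19.4 with the VDR activator and 21.0 in DMSO.

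Cytosolic aminoacyl-tRNA synthetases, which load tRNAs with amino acids, were among the most uniform groups. With 20 measured, 17 were higher by the limit or more and 0 lower, with a median of 1.89. The tyrosyl enzyme Yars had 411 CPM with 25-hydroxyvitamin D3, 189.6 with the SREBP inhibitor, 65.5 with the VDR activator and 62.3 in DMSO, and was 6.60-fold higher (95% interval 6.23 to 6.999). Gars, for glycine, was 5.81-fold higher, Lars, for leucine, 5.50-fold, and Nars, for asparagine, 4.56-fold. The 3 that did not pass were Cars (57.3 CPM with 25-hydroxyvitamin D3 and 40.5 in DMSO), Hars (74.7 CPM with 25-hydroxyvitamin D3 and 65.2 in DMSO) and Qars (148 CPM with 25-hydroxyvitamin D3 and 197 in DMSO). Among the enzymes of mitochondria 1 of 17 was higher, Mars2 for methionine at 3.40-fold higher (95% interval 2.95 to 3.93), with a median of 0.37, range 0.24 to 0.41.

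Enzymes that make serine and glycine and move one-carbon units on folate were higher in 14 of 23 measured members and lower in 2 (median 1.28). Mthfd2, the mitochondrial methylene-tetrahydrofolate dehydrogenase, had 421 CPM with 25-hydroxyvitamin D3, 196 with the SREBP inhibitor, 62.0 with the VDR activator and 49.1 in DMSO, and was 8.57-fold higher (95% interval 8.04 to 9.14). Its partner Mthfd1l, which releases formate from mitochondria, was 7.04-fold higher, the mitochondrial serine hydroxymethyltransferase Shmt2 5.54-fold and the cytosolic Mthfd1 4.80-fold. The 3 enzymes that make serine from glycolysis were higher too, Phgdh at 3.39-fold, Psat1 at 3.54-fold and Psph at 4.12-fold. Among the lower members was Mat2a, which makes S-adenosylmethionine, with 35.1 CPM with 25-hydroxyvitamin D3, 119.8 with the SREBP inhibitor, 122.6 with the VDR activator and 125 in DMSO. Aldh18a1, the first enzyme of proline synthesis from glutamate, was near the measuring limit in both libraries, with 2.06 CPM with 25-hydroxyvitamin D3 against 3.04 CPM in DMSO; CHO-K1 cells are known to need proline in their medium.

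Among 22 measured amino acid transporters, 7 were higher and 2 lower (median 0.29, range 0.17 to 0.40). Slc1a5, a glutamine transporter, had 138 CPM with 25-hydroxyvitamin D3, 53.2 with the SREBP inhibitor, 17.4 with the VDR activator and 11.5 in DMSO, and was 11.98-fold higher (95% interval 10.5 to 13.7). Slc7a5, which with Slc3a2 forms the exchanger of large neutral amino acids, was 7.15-fold higher, and Slc7a1, which takes up arginine and lysine, 6.02-fold. Slc38a2, a glutamine carrier known to respond to amino acid lack, had 345 CPM with 25-hydroxyvitamin D3, 504 with the SREBP inhibitor, 383 with the VDR activator and 389 in DMSO. The lower members were Slc43a2, a facilitative carrier of neutral amino acids, at 28.2 CPM with 25-hydroxyvitamin D3 and 121 in DMSO, and the taurine carrier Slc6a6 at 165 CPM with 25-hydroxyvitamin D3 and 489.8 in DMSO. Slc43a3, a relative of Slc43a2 that carries purine bases, was among the 15 largest lower differences, with 0.442 CPM with 25-hydroxyvitamin D3, 11.6 with the SREBP inhibitor, 24.7 with the VDR activator and 32.0 in DMSO.

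In the endoplasmic reticulum few genes passed the limit. Of 30 measured genes of folding, the XBP1 branch and degradation, 3 (10%) were higher, near the 11.6% of all measured genes, and 0 lower (median -0.18, range -0.32 to -0.17). The higher ones were 2 sensors of unfolded protein and a degradation gene. Atf6, a membrane-bound transcription factor released by the SREBP proteases, had 542 CPM with 25-hydroxyvitamin D3, 193 with the SREBP inhibitor, 104.7 with the VDR activator and 109 in DMSO, and was 4.95-fold higher (95% interval 4.74 to 5.18). Ern1, which splices Xbp1 mRNA, was 2.86-fold higher (95% interval 2.66 to 3.07), and Herpud1, which takes part in degradation at the membrane, had 116 CPM with 25-hydroxyvitamin D3 against 35.9 CPM in DMSO. Hspa5, the chaperone BiP, had 3888 CPM with 25-hydroxyvitamin D3, 3102 with the SREBP inhibitor, 2216 with the VDR activator and 2438 in DMSO, and the disulfide isomerases Pdia3, Pdia6 and P4hb were below their DMSO values by less than the limit, at -0.73, -0.64 and -0.57 in log2(CPM + 1).

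Cytosolic and mitochondrial chaperones gave 10 higher and 3 lower members among 28 measured heat shock proteins and cochaperones (median 0.64). The largest higher differences were in the mitochondrial set, with Hspa9, the Hsp70 of the matrix, 7.59-fold higher (95% interval 7.35 to 7.83), Hspd1, the Hsp60 chaperonin, 5.75-fold higher (95% interval 5.60 to 5.91), and the cochaperone Dnaja3 4.08-fold higher. Hspd1 had 1691 CPM with 25-hydroxyvitamin D3, 838 with the SREBP inhibitor, 415 with the VDR activator and 294 in DMSO. Both Hsp90 genes were higher by a smaller step, Hsp90aa1 at 2.15-fold and Hsp90ab1 at 2.20-fold, although both fell short of 2-fold under upper quartile scaling. Hsp70 genes of the cytosol lay in the other direction. The constitutive Hspa8 had 518 CPM with 25-hydroxyvitamin D3, 1252 with the SREBP inhibitor, 1318 with the VDR activator and 1171 in DMSO, and was 2.26-fold lower (95% interval 2.21 to 2.31), Hspa2 was 3.45-fold lower, and the stress-inducible Hspa1a had 0.932 CPM with 25-hydroxyvitamin D3 against 3.55 CPM in DMSO, short of the limit with FPKM and with a pseudocount of 5. All 8 subunits of the CCT ring, which folds actin and tubulin, were higher, by 2.81-fold (Cct3) to 4.10-fold (Cct4), with a median difference of 1.604.

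Genes listed as NRF2 targets or in glutathione metabolism gave 9 higher and 2 lower among 35 measured (median 0.32, range 0.18 to 0.33). Hmox1, which degrades heme, had 1843 CPM with 25-hydroxyvitamin D3, 156 with the SREBP inhibitor, 64.7 with the VDR activator and 49.1 in DMSO. It was 37.5-fold higher (95% interval 35.3 to 39.9) and among the 10 largest gains in CPM. Gss, the glutathione synthetase, was 7.60-fold higher (95% interval 7.23 to 7.98), Gclm, the modifier subunit of the step before it, 3.35-fold and Prdx6, a peroxiredoxin, 2.40-fold. Txnrd1, the cytosolic thioredoxin reductase, had 2570.1 CPM with 25-hydroxyvitamin D3, 1125 with the SREBP inhibitor, 609 with the VDR activator and 591 in DMSO. Fth1, the heavy chain of ferritin, was 2.04-fold higher, short of 2-fold under upper quartile scaling, equal totals and FPKM. The 2 lower members were Nqo1, the quinone reductase often used as an NRF2 reporter, with 14.8 CPM with 25-hydroxyvitamin D3, 46.1 with the SREBP inhibitor, 90.1 with the VDR activator and 82.8 in DMSO, and Gstp1, a glutathione transferase, at 2.44-fold lower.

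Mitochondrial mRNAs separated by the genome that encodes them. All 13 mRNAs encoded in mitochondrial DNA were lower, with differences of -2.51 to -4.12 in log2(CPM + 1) and a median of -3.43. COX1, a core subunit of cytochrome oxidase, had 3380.0 CPM with 25-hydroxyvitamin D3, 14370.2 with the SREBP inhibitor, 16937 with the VDR activator and 19305 in DMSO. ATP6, a subunit of the ATP synthase, had 402 CPM with 25-hydroxyvitamin D3, 5107 with the SREBP inhibitor, 5213 with the VDR activator and 6104 in DMSO, and was 15.2-fold lower (95% interval 14.9 to 15.5). For both genes the libraries of the selective compounds lay far above that of 25-hydroxyvitamin D3. Together these mRNAs made up 0.753% of the counts with 25-hydroxyvitamin D3, 5.25% with the SREBP inhibitor, 5.93% with the VDR activator and 6.81% in DMSO. Per length, COX1 had 1961 FPKM with 25-hydroxyvitamin D3 against 11860.3 FPKM in DMSO, where 8 of the 10 highest FPKM values among genes with a symbol were of mitochondrial-encoded mRNAs. With 25-hydroxyvitamin D3 none of the 10 highest was, and the order began with Eef1a1 (5852 FPKM), an elongation factor, and Rpsa (4628 FPKM), a ribosomal protein.

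Nuclear genes for the same complexes did not share this difference. None of 36 complex I subunits, none of 9 complex IV subunits and none of 16 ATP synthase subunits passed the limit in log2(CPM + 1). Without the pseudocount, the CPM ratio was past 2-fold for some members of low level in complex I and the ATP synthase. The medians were -0.02 for complex I, with a range of -0.16 to -0.02, -0.33 for complex IV, with a range of -0.81 to -0.31, and 0.12 for the ATP synthase, which turned to -0.02 under upper quartile scaling. In complexes II and III, Sdhb, the iron-sulfur subunit of succinate dehydrogenase, and Cyc1, cytochrome c1, were 2.09-fold and 2.33-fold higher among 13 measured (median 0.23, range 0.09 to 0.24), Sdhb short of the limit under upper quartile scaling, equal totals and FPKM. Within complex IV, Cox5a had 210.0 CPM with 25-hydroxyvitamin D3 against 117 CPM in DMSO and Cox6b1 57.1 CPM with 25-hydroxyvitamin D3 against 85.9 CPM in DMSO.

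Genes that maintain and express mitochondrial DNA were higher in 19 of 38 measured members and lower in 0 (median 0.99). Lonp1, the protease of the matrix, had 545 CPM with 25-hydroxyvitamin D3, 282 with the SREBP inhibitor, 164 with the VDR activator and 135 in DMSO, and was 4.03-fold higher (95% interval 3.87 to 4.195). Lrpprc, which stabilises mitochondrial mRNAs, was 3.58-fold higher (95% interval 3.45 to 3.71), Trmt10c, a subunit of the RNase that frees tRNAs from the primary transcript, 3.23-fold and Elac2, which trims them, 2.94-fold. The RNA polymerase Polrmt and the packaging factor Tfam were on the same side by less than the limit, with 81.2 CPM with 25-hydroxyvitamin D3 against 47.9 CPM in DMSO and 70.1 CPM with 25-hydroxyvitamin D3 against 44.2 CPM in DMSO. Fastkd5, needed for transcripts that no tRNA borders, had 9.52 CPM with 25-hydroxyvitamin D3 against 15.9 CPM in DMSO. Of 76 mitochondrial ribosomal proteins 19 were higher and 0 lower (median 0.63), with Mrpl24 and Mrps35 both at 3.72-fold, whereas Mrpl34 had 17.3 CPM with 25-hydroxyvitamin D3 against 28.7 CPM in DMSO. Citrate cycle genes had 4 of 28 higher and 1 lower (median 0.37, range 0.23 to 0.38), among the higher the succinyl-CoA ligase subunit Suclg2 at 2.32-fold. For this list that is 14.3% and 3.57%, beside 11.6% and 12.2% of all measured genes.

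**Figure D4:**
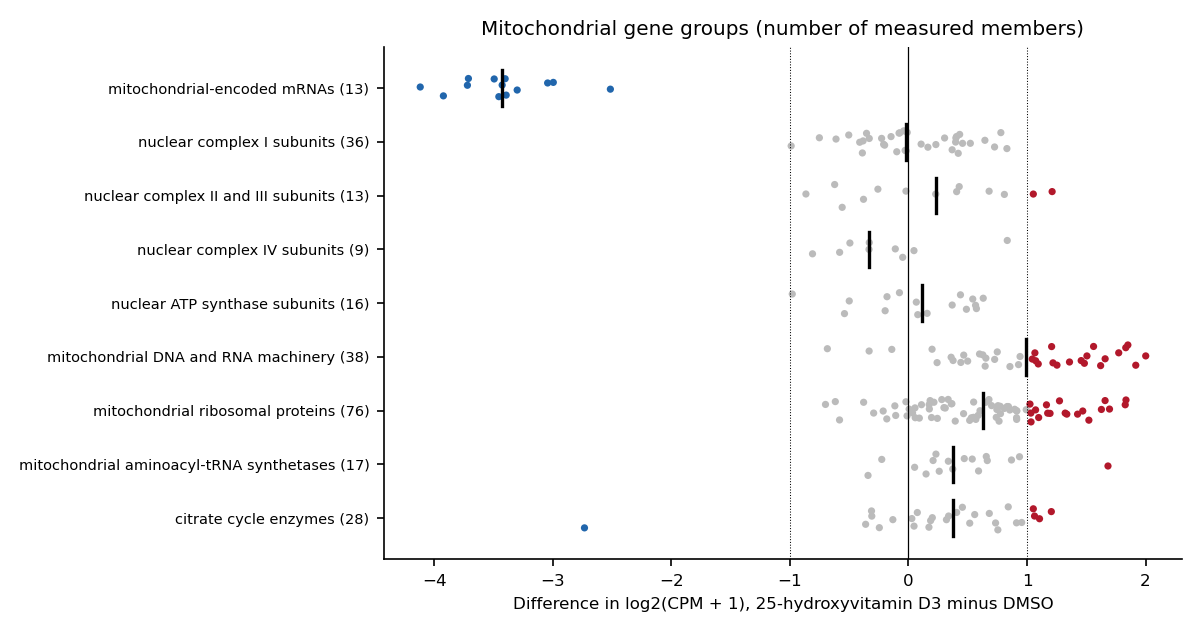
Each point is a measured gene, placed by its difference in log2(CPM + 1), 25-hydroxyvitamin D3 minus DMSO; black ticks are group medians, dotted lines the 2-fold limits, and red and blue points passed them. The 13 mitochondrial-encoded mRNAs lie between -4.12 and -2.51, and the nuclear subunits of complexes I and IV and the ATP synthase lie within the limits.

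Genes that build ribosomes in the nucleolus were higher almost throughout. Of 45 measured genes, 39 passed 2-fold on the high side and 0 on the low side, and 45 lay above 0 (median 1.65). Rrp9, which binds the U3 small nucleolar RNA, had 149 CPM with 25-hydroxyvitamin D3, 56.3 with the SREBP inhibitor, 24.9 with the VDR activator and 14.6 in DMSO, and was 10.3-fold higher (95% interval 9.13 to 11.6). The libraries of both selective compounds lay between for this gene. Nop56, a core protein of box C/D particles, was 5.80-fold higher, Mybbp1a 5.66-fold, nucleophosmin Npm1 5.33-fold, and the dyskerin gene Dkc1, for pseudouridylation, 4.88-fold. Nucleolin, Ncl, was among the 10 largest gains, with 2432 CPM with 25-hydroxyvitamin D3 against 501 CPM in DMSO. The members short of 2-fold included Polr1a, the largest subunit of RNA polymerase I (98.3 CPM with 25-hydroxyvitamin D3 and 56.3 in DMSO), and Ubtf, its upstream binding factor (165 CPM with 25-hydroxyvitamin D3 and 118 in DMSO).

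Ribosomal proteins of the cytosol differed less. Of 78 measured, 3 were higher and 1 lower, but 72 lay above 0 (median 0.52). Rps2 had 2426 CPM with 25-hydroxyvitamin D3, 1777 with the SREBP inhibitor, 1405 with the VDR activator and 1035 in DMSO. Rps27l was 2.60-fold higher and its close relative Rps27 had 83.1 CPM with 25-hydroxyvitamin D3 against 121 CPM in DMSO; Rpl39 was 2.13-fold lower (95% interval 2.05 to 2.22). Many ribosomal protein genes have processed copies, so their counts are uncertain. Of 54 translation factors and their regulators 22 were higher and 0 lower (median 0.92). Eif4ebp1, which restrains the cap-binding factor, was 4.602-fold higher (95% interval 4.37 to 4.85), while its relative Eif4ebp2 had 286 CPM with 25-hydroxyvitamin D3 against 422 CPM in DMSO. The eIF2 subunits Eif2s1 and Eif2s2 were 3.71-fold and 4.19-fold higher. Eef1e1, a scaffold of the tRNA synthetase complex, was 7.59-fold higher and led the list.

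Nucleotide and polyamine synthesis leaned the same way. Of 28 measured genes of purine and pyrimidine synthesis 17 were higher and 0 lower (median 1.24), with the purine enzymes Paics and Gart at 4.03-fold and 3.98-fold and Cad, which starts pyrimidine synthesis, at 3.87-fold. Impdh2 was 3.01-fold higher and its isozyme Impdh1 had 138 CPM with 25-hydroxyvitamin D3 against 131 CPM in DMSO. Of 13 polyamine genes 7 were higher and 1 lower (median 1.08). Srm, the spermidine synthase, had 178 CPM with 25-hydroxyvitamin D3, 65.8 with the SREBP inhibitor, 26.9 with the VDR activator and 17.9 in DMSO, and was 9.96-fold higher (95% interval 8.97 to 11.1). Odc1, the rate-limiting decarboxylase, was 6.20-fold higher (95% interval 5.62 to 6.84), and the lower member was Oaz2, an antizyme that inhibits it, with 55.9 CPM with 25-hydroxyvitamin D3 against 168 CPM in DMSO. Of 45 proteasome genes only 2 passed, Psmc4 at 2.21-fold and Psmd14 at 2.04-fold, both short of 2-fold under upper quartile scaling and Psmd14 also with equal totals, FPKM and a pseudocount of 5; the median was 0.53.

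Myc, a transcription factor of growth genes, had 172 CPM with 25-hydroxyvitamin D3, 83.5 with the SREBP inhibitor, 42.4 with the VDR activator and 20.3 in DMSO, and was 8.45-fold higher (95% interval 7.65 to 9.35). A second row described as the Myc protein had 348 CPM with 25-hydroxyvitamin D3 against 42.1 CPM in DMSO, so the reads of this gene may be split between both rows. Among 11 measured members of the MAX network 2 were higher and 1 lower (median 0.19, range 0.05 to 0.20), and the repressor Mxd4 had 44.8 CPM with 25-hydroxyvitamin D3, 134 with the SREBP inhibitor, 190.3 with the VDR activator and 203 in DMSO, the opposite order of the 4 libraries. Max, the shared partner, had 36.5 CPM with 25-hydroxyvitamin D3 against 35.3 CPM in DMSO, and Mga, a large MAX-binding repressor, was 2.79-fold higher.

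Genes of DNA replication and of mitosis held many higher members and few lower ones. Of 41 replication genes 16 were higher and 0 lower (median 0.88). Pola1, the catalytic subunit of the priming polymerase, had 183 CPM with 25-hydroxyvitamin D3, 83.5 with the SREBP inhibitor, 82.8 with the VDR activator and 59.0 in DMSO, and Mcm2 of the replicative helicase 269.6 CPM with 25-hydroxyvitamin D3, 141 with the SREBP inhibitor, 143 with the VDR activator and 85.6 in DMSO. Mcm3 (77.2 CPM with 25-hydroxyvitamin D3 and 54.4 in DMSO) and Mcm4 (138 CPM with 25-hydroxyvitamin D3 and 103 in DMSO), subunits of the same helicase, were above their DMSO values by less than the limit. Of 44 kinetochore and checkpoint genes 12 were higher and 0 lower (median 0.74), with Sgo1, which protects centromeric cohesion, at 3.28-fold and Cdca8, of the chromosomal passenger complex, at 3.31-fold. Of 29 kinesins 6 were higher and 2 lower (median 0.49, range 0.08 to 0.53). The higher ones were mitotic motors such as Kif20b (3.56-fold), Kif18a (3.72-fold) and Kif23 (3.04-fold); the lower ones, Kifc2 (4.29-fold) and Kifc3 (3.30-fold), are transport motors, and Kifc2 was short of 2-fold with a pseudocount of 5.

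Among 34 cyclins, cyclin-dependent kinases and inhibitors 7 were higher and 5 lower (median 0.23, range 0.09 to 0.24). As shares these were 20.6% and 14.7%, beside 11.6% and 12.2% of all measured genes. The D cyclins went apart, with Ccnd1 at 97.5 CPM with 25-hydroxyvitamin D3 against 211 CPM in DMSO and Ccnd2 at 393 CPM with 25-hydroxyvitamin D3 against 184 CPM in DMSO, and so did the E cyclins, with Ccne1 4.87-fold higher (95% interval 3.92 to 6.10) and Ccne2 3.05-fold lower (95% interval 2.28 to 4.13). Ccnd2 was short of 2-fold under upper quartile scaling and with FPKM, and Ccne2 with a pseudocount of 5. Cdkn2c, an inhibitor of the kinases that D cyclins bind, had 10.2 CPM with 25-hydroxyvitamin D3, 28.9 with the SREBP inhibitor, 55.9 with the VDR activator and 45.5 in DMSO. Of 44 repair and checkpoint genes 13 were higher and 2 lower (median 0.70). Neil3, a DNA glycosylase, was 3.51-fold higher, Bard1 3.54-fold and the helicase gene Blm 3.16-fold, whereas Lig4, the ligase of end joining, was 2.79-fold lower and the checkpoint kinase gene Chek2 2.16-fold, the last short of 2-fold with FPKM and with a pseudocount of 5. The p53 list gave 4 higher and 5 lower members of 25, with a median of 0.06 that changed sign under upper quartile scaling, equal totals, FPKM and a minimum of 5 CPM. Tp53inp1 had 19.2 CPM with 25-hydroxyvitamin D3, 113 with the SREBP inhibitor, 151 with the VDR activator and 199 in DMSO, the death receptor gene Fas was 4.35-fold lower, and Plk2, a polo-like kinase, had 328 CPM with 25-hydroxyvitamin D3, 71.1 with the SREBP inhibitor, 29.1 with the VDR activator and 51.4 in DMSO. Mdm2, the ligase that degrades p53, had 273 CPM with 25-hydroxyvitamin D3 against 169.6 CPM in DMSO.

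Glucose metabolism and hypoxia genes went both ways, with 7 higher and 5 lower of 35 measured (median 0.23, range 0.10 to 0.25). In this list 20% were higher and 14.3% lower, beside 11.6% and 12.2% of all measured genes. The pyruvate dehydrogenase kinases, which hold pyruvate back from mitochondria, split by isozyme. Pdk1 was 3.80-fold higher (95% interval 3.42 to 4.22), but Pdk2 and Pdk3 were 2.11-fold and 2.45-fold lower, Pdk2 short of 2-fold with a pseudocount of 5. The lactate and pyruvate carrier Slc16a1 was 3.49-fold higher, the glucose carrier Slc2a1 2.66-fold and the hexokinase Hk2 2.55-fold. Ndrg1 (23.4 CPM with 25-hydroxyvitamin D3 and 54.6 in DMSO) and Ddit4, of the same list, were lower.

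Immediate early factors went both ways. Among 21 measured, 6 were higher and 5 lower, and the median of 0.04 changed sign under upper quartile scaling, equal totals, FPKM and no minimum and was 0.32 with a minimum of 5 CPM. The measured EGR factors were lower, with Egr1 at 5.30 CPM with 25-hydroxyvitamin D3, 42.6 with the SREBP inhibitor, 46.1 with the VDR activator and 62.7 in DMSO, Egr2 at 0.932 CPM with 25-hydroxyvitamin D3 and 5.62 in DMSO and Egr3 at 0.785 CPM with 25-hydroxyvitamin D3 and 6.40 in DMSO, the last 2 short of 2-fold with a pseudocount of 5. AP-1 subunits and their relatives held the high side. Fosl1 had 123.4 CPM with 25-hydroxyvitamin D3, 58.7 with the SREBP inhibitor, 15.7 with the VDR activator and 15.1 in DMSO, and Junb 159.6 CPM with 25-hydroxyvitamin D3, 33.4 with the SREBP inhibitor, 46.2 with the VDR activator and 20.1 in DMSO. Jun (42.3 CPM with 25-hydroxyvitamin D3 and 26.8 in DMSO) and Fosl2 (302 CPM with 25-hydroxyvitamin D3 and 343 in DMSO) did not pass the limit. The orphan receptor gene Nr4a1 was 4.29-fold lower (95% interval 3.36 to 5.52), and Atf3, counted here and in the ATF4 branch, had 48.0 CPM with 25-hydroxyvitamin D3, 8.92 with the SREBP inhibitor, 3.27 with the VDR activator and 1.29 in DMSO.

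Feedback inhibitors of receptor tyrosine kinase signalling gave 4 higher and 5 lower of 21 measured (median -0.13, range -0.30 to -0.09). Dusp6, the cytoplasmic phosphatase of ERK, had 8.59 CPM with 25-hydroxyvitamin D3, 33.4 with the SREBP inhibitor, 36.1 with the VDR activator and 72.8 in DMSO, and was 8.48-fold lower (95% interval 7.25 to 9.97). Spry2 and Etv5, which also follow ERK activity in many cells, were 3.50-fold and 3.14-fold lower. Dusp4 and Dusp16, nuclear and shuttling phosphatases of other MAP kinases as well, were 2.62-fold and 3.73-fold higher.

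Growth factors and their receptors were lower in 8 and higher in 5 of 24 measured members, with a median of 0.11 that turned to -0.02 under upper quartile scaling. Kitlg, the ligand of the KIT receptor, had 13.3 CPM with 25-hydroxyvitamin D3, 68.4 with the SREBP inhibitor, 91.8 with the VDR activator and 143 in DMSO, and was 10.7-fold lower (95% interval 9.47 to 12.2). The receptors Pdgfra and Pdgfrb had 41.8 CPM with 25-hydroxyvitamin D3 and 240.0 in DMSO and 21.0 CPM with 25-hydroxyvitamin D3 and 129 in DMSO, and Met, the receptor of Hgf, 77.6 CPM with 25-hydroxyvitamin D3 and 206 in DMSO. Hgf itself was 3.10-fold lower. The higher members were mostly ligands, with Vegfa 3.69-fold higher (95% interval 3.40 to 4.01) and the EGF receptor ligands Hbegf and Areg 2.60-fold and 2.26-fold higher, while their relative Ereg was 2.35-fold lower. Hbegf and Ereg were short of 2-fold with a pseudocount of 5.

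Chemokines and interleukins included the largest higher difference of the comparison. Cxcl3, a chemokine that attracts neutrophils, had 271 CPM with 25-hydroxyvitamin D3, 4.18 with the SREBP inhibitor, 1.35 with the VDR activator and 0.737 in DMSO, and was 368-fold higher (95% interval 226 to 643). Its relative Cxcl1 had 28.1 CPM with 25-hydroxyvitamin D3, 4.18 with the SREBP inhibitor, 10.7 with the VDR activator and 4.56 in DMSO, and Ptgs2, the inducible prostaglandin synthase, 124 CPM with 25-hydroxyvitamin D3, 12.8 with the SREBP inhibitor, 6.38 with the VDR activator and 9.81 in DMSO. Lif, a cytokine of the interleukin 6 family, was 3.82-fold higher. In the other direction Cxcl12 had no count with 25-hydroxyvitamin D3 and 90 counts in DMSO, short of the limit with FPKM and with a pseudocount of 5, and Il15 had 1.77 CPM with 25-hydroxyvitamin D3 against 9.95 CPM in DMSO. Over all 19 measured members 4 were higher and 4 lower (median -0.37, range -0.49 to -0.06).

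In the TGF-beta and BMP pathway 3 of 37 were higher and 9 lower (median -0.15, range -0.29 to -0.13). The 3 higher genes are inhibitors of the pathway. Fst, follistatin, which binds activin, had 133 CPM with 25-hydroxyvitamin D3, 25.1 with the SREBP inhibitor, 10.5 with the VDR activator and 5.94 in DMSO, and was 22.4-fold higher (95% interval 18.8 to 27.0). Skil, a corepressor of SMADs, was 3.84-fold higher, and Smad7, which blocks the receptors, had 3.04 CPM with 25-hydroxyvitamin D3 against 0.322 CPM in DMSO. Lower were the receptor Tgfbr2 (4.31-fold), the ligands Tgfb1 (2.15-fold) and Tgfb3 (2.32-fold) and the target Id2, with 0.981 CPM with 25-hydroxyvitamin D3 against 8.61 CPM in DMSO. A pseudocount of 5 left Smad7, Tgfb1 and Tgfb3 short of 2-fold.

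Wnt genes gave 1 higher and 6 lower of 26 (median -0.47), with the receptors Fzd7, Fzd1 and Fzd4 lower by 2.79-fold, 2.37-fold and 2.90-fold and Fzd5 at 7.02 CPM with 25-hydroxyvitamin D3 against 1.61 CPM in DMSO. Fzd5 was short of 2-fold with a pseudocount of 5, and Fzd4 with that and with FPKM. Wnt4, a ligand, had 1.18 CPM with 25-hydroxyvitamin D3, 8.96 with the SREBP inhibitor, 14.2 with the VDR activator and 10.1 in DMSO. Of 17 Notch and Hedgehog genes (median -0.26, range -0.40 to -0.20), the receptors Notch1 and Notch3 were 3.18-fold and 3.57-fold lower and the ligand Jag1 was 3.06-fold higher, short of 2-fold with FPKM. As shares of the 17, 11.8% were lower and 5.88% higher, beside 12.2% and 11.6% of all measured genes. Guidance genes had 4 higher and 5 lower of 29 (median -0.27, range -0.47 to -0.12). These were 13.8% and 17.2%, beside 11.6% and 12.2% of all measured genes. The semaphorins of class 3 Sema3a, Sema3c and Sema3e were 7.29-fold, 2.59-fold and 2.70-fold higher. Their receptors went apart, with Nrp1 at 80.9 CPM with 25-hydroxyvitamin D3 and 229 in DMSO and Nrp2 at 597 CPM with 25-hydroxyvitamin D3 and 159 in DMSO.

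The CCN family, secreted proteins known as targets of the YAP coactivator, held large differences in both directions. Over 20 measured members and further YAP pathway genes 2 were higher and 4 lower (median -0.11, range -0.28 to -0.08). That is 10% higher, near the 11.6% of all measured genes, and 20% lower, beside 12.2%. Ctgf had 0.638 CPM with 25-hydroxyvitamin D3, 32.2 with the SREBP inhibitor, 20.2 with the VDR activator and 91.7 in DMSO, the largest lower difference in log2(CPM + 1) among all measured genes, at 144-fold lower (95% interval 83.9 to 271). Cyr61 had 97.0 CPM with 25-hydroxyvitamin D3, 23.4 with the SREBP inhibitor, 9.08 with the VDR activator and 10.1 in DMSO, and was 9.62-fold higher (95% interval 8.36 to 11.1). Wisp2, of the same family, was 8.24-fold lower, and of the other YAP targets Ankrd1 (2.70 CPM with 25-hydroxyvitamin D3 and 1.75 in DMSO) and Axl (242 CPM with 25-hydroxyvitamin D3 and 216 in DMSO) did not pass the limit. Ctgf was lower than in DMSO in all 3 treated libraries, and lowest with 25-hydroxyvitamin D3.

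Of 31 measured nuclear receptors, the VDR and its partners included, 4 were higher and 4 lower (median -0.26, range -0.40 to -0.12). Both shares were 12.9%, near the 11.6% higher and 12.2% lower of all measured genes. Nr1d1, the heme-binding repressor REV-ERB alpha of the circadian clock, had 143 CPM with 25-hydroxyvitamin D3, 17.2 with the SREBP inhibitor, 12.6 with the VDR activator and 12.6 in DMSO, and was 11.3-fold higher (95% interval 9.99 to 12.9). A further row described as the same receptor had 129 CPM with 25-hydroxyvitamin D3 against 12.2 CPM in DMSO. Its paralog Nr1d2 was just short of the limit, with 109 CPM with 25-hydroxyvitamin D3 against 54.1 CPM in DMSO. Nr1h3, the oxysterol receptor LXR alpha, was 2.84-fold lower (95% interval 2.53 to 3.21), Nr1h2, LXR beta, had 50.5 CPM with 25-hydroxyvitamin D3 against 99.7 CPM in DMSO, and the thyroid hormone receptor Thra was 2.78-fold lower. Esr2, estrogen receptor beta, had 8.83 CPM with 25-hydroxyvitamin D3 against 2.44 CPM in DMSO, short of the limit with FPKM and with a pseudocount of 5.

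Matrix and surface groups held more lower than higher members. The shares also differed with gene model length, taken as counts over FPKM in 9935 well-counted genes. Of the 1987 longest, 7.90% were higher and 14.7% lower, against 13.7% and 7.15% of the 1987 shortest. As given above for all measured genes, the shares differed with the level of a gene as well. The part of length and of level in the results of these groups was not tested. Of 14 measured collagens 7 were at least 2-fold lower and 1 higher (median -1.19, range -1.68 to -0.25). Col3a1, a fibrillar collagen, had 92.1 CPM with 25-hydroxyvitamin D3, 390.5 with the SREBP inhibitor, 575 with the VDR activator and 916 in DMSO, and Col27a1 1.67 CPM with 25-hydroxyvitamin D3, 9.48 with the SREBP inhibitor, 25.9 with the VDR activator and 47.1 in DMSO. Col16a1 was 5.00-fold lower and Col7a1, of anchoring fibrils, 5.32-fold, whereas Col4a4, a basement membrane chain, had 656 CPM with 25-hydroxyvitamin D3 against 845 CPM in DMSO and Col8a1 was 2.05-fold higher, short of 2-fold under upper quartile scaling, equal totals, FPKM and a pseudocount of 5. The collagen median was -0.44 with FPKM, -0.43 with a pseudocount of 5 and -0.25 with no minimum. Of 18 genes of the basement membrane 10 were lower and 0 higher (median -1.14, range -1.26 to -0.70). The laminin chains differed, with Lama3 at 0.638 CPM with 25-hydroxyvitamin D3, 7.84 with the SREBP inhibitor, 6.55 with the VDR activator and 27.0 in DMSO and Lama5 3.13-fold lower, but Lamb1 (1317 CPM with 25-hydroxyvitamin D3 and 1238 in DMSO) and Lamc1 (1489 CPM with 25-hydroxyvitamin D3 and 1146 in DMSO) short of the limit. Hspg2, the core of perlecan, was 4.32-fold lower (95% interval 4.21 to 4.44).

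Among 10 integrins 3 were lower and 1 higher (median -0.81, range -0.90 to -0.15), and of the lower ones Itga7 and Itgb4 were short of 2-fold with FPKM and with a pseudocount of 5. Itgb5, which pairs with the alpha V chain, had 214 CPM with 25-hydroxyvitamin D3, 659 with the SREBP inhibitor, 669 with the VDR activator and 992 in DMSO, Itgb1, the common beta chain, had 1930.4 CPM with 25-hydroxyvitamin D3 against 1257 CPM in DMSO, and Itga2b was 5.99-fold higher (95% interval 4.52 to 8.06). Of 14 cadherins and protocadherins 6 were lower and 0 higher (median -0.96, range -1.44 to -0.11), led by Pcdhgc5 (5.64 CPM with 25-hydroxyvitamin D3 and 59.0 in DMSO), Pcdh19 (18.9 CPM with 25-hydroxyvitamin D3 and 82.2 in DMSO) and Pcdh18 (24.3 CPM with 25-hydroxyvitamin D3 and 100.0 in DMSO), and of the lower ones Cdh24 was short of 2-fold with a pseudocount of 5. Of 34 metalloproteinases and their inhibitors 14 were lower and 2 higher (median -0.79). Mmp19 was 5.91-fold lower, and both measured secreted inhibitors, Timp1 and Timp2, were lower too, by 2.37-fold and 4.55-fold. Mmp10 had 4.02 CPM with 25-hydroxyvitamin D3 against 0.184 CPM in DMSO, short of 2-fold with a pseudocount of 5. Heparan and chondroitin sulphate genes had 5 lower and 2 higher of 29 (median -0.32). Chst12, a chondroitin sulfotransferase, was 10.2-fold lower, Dcn, decorin, 3.23-fold, and Extl1, a heparan sulphate enzyme, 5.18-fold higher. The sulfatase Sulf2, at 75.4 CPM with 25-hydroxyvitamin D3, 56.7 with the SREBP inhibitor, 112 with the VDR activator and 36.7 in DMSO, was highest in the VDR activator library and, with 25-hydroxyvitamin D3, short of 2-fold under upper quartile scaling, equal totals, FPKM and a pseudocount of 5.

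Markers of mesenchymal cells, the type to which fibroblasts belong, stood on the same side. Of 7 mesenchymal markers, 5 were measured, and their summed level over all 7 was 1359 CPM with 25-hydroxyvitamin D3, 3220 with the SREBP inhibitor, 2429 with the VDR activator and 3793 in DMSO. Vim, the filament protein vimentin, had 787 CPM with 25-hydroxyvitamin D3 against 1481 CPM in DMSO, S100a6 104 CPM with 25-hydroxyvitamin D3 against 821 CPM in DMSO and S100a4 1.86 CPM with 25-hydroxyvitamin D3 against 17.3 CPM in DMSO. Fn1 had 373 CPM with 25-hydroxyvitamin D3 against 557 CPM in DMSO, and neither Vim nor Fn1 passed the limit. Col3a1, the remaining measured marker, is also counted among the lower collagens above. Cdh2 had no count in either library and Col1a1 was below 1 CPM in both. Of the defining markers of other lineages, Ptprc, Cd3e, Itgam and Krt18 had no count in either library, and Fshr, a defining marker of granulosa cells, had none either. Summed levels with 25-hydroxyvitamin D3 against DMSO were 1.03 and 1.06 CPM for 4 epithelial markers, 0.0491 and 0 CPM for 4 leukocyte markers and 0.540 and 2.03 CPM for 3 endothelial markers. They were 2.94 and 3.96 CPM for 3 neuronal markers, 0.638 and 1.57 CPM for 3 hepatocyte markers, 0.0981 and 0.645 CPM for 1 muscle marker and 4.71 and 16.1 CPM for 4 markers of ovarian granulosa and theca cells. The part of the mesenchymal markers in the matrix results was not tested.

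Channels and transporters of the membrane are given next. Aqp1, a water channel, had 0.343 CPM with 25-hydroxyvitamin D3, 7.32 with the SREBP inhibitor, 10.9 with the VDR activator and 65.9 in DMSO, and all 3 measured aquaporins were lower (median -1.52, range -2.002 to -0.77), but Aqp3 was short of 2-fold with a pseudocount of 5, and Aqp11 with that and with FPKM. Of 47 ion channel genes 11 were lower and 1 higher (median -0.45, range -0.58 to -0.09). Their shares were 23.4% lower and 2.13% higher, beside 12.2% and 11.6% of all measured genes. Genes between 1 and 5 CPM had 25.0% lower and 3.72% higher, and the part of level in the channel result was not tested. The sodium channels Scn7a, Scn1a and Scn8a had 0.834 CPM with 25-hydroxyvitamin D3 and 30.5 in DMSO, 5.25 CPM with 25-hydroxyvitamin D3 and 40.7 in DMSO and 26.2 CPM with 25-hydroxyvitamin D3 and 64.9 in DMSO, and the higher gene was their relative Scn4a, with 2.55 CPM with 25-hydroxyvitamin D3 and 0.138 in DMSO, short of 2-fold with FPKM and with a pseudocount of 5. ABC transporters had 5 higher and 4 lower of 27 (median 0.27, range 0.12 to 0.44). These were 18.5% and 14.8%, beside 11.6% and 12.2% of all measured genes. The drug efflux genes Abcb1 and Abcb1b, close paralogs whose reads may be shared, had 335 CPM with 25-hydroxyvitamin D3 against 71.5 CPM in DMSO and 81.4 CPM with 25-hydroxyvitamin D3 against 22.8 CPM in DMSO. Abce1, which recycles ribosomes, was 3.35-fold higher, and Abca9, of the lipid-carrying A class, had 0.491 CPM with 25-hydroxyvitamin D3, 10.2 with the SREBP inhibitor, 12.9 with the VDR activator and 28.7 in DMSO.

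**Figure D5:**
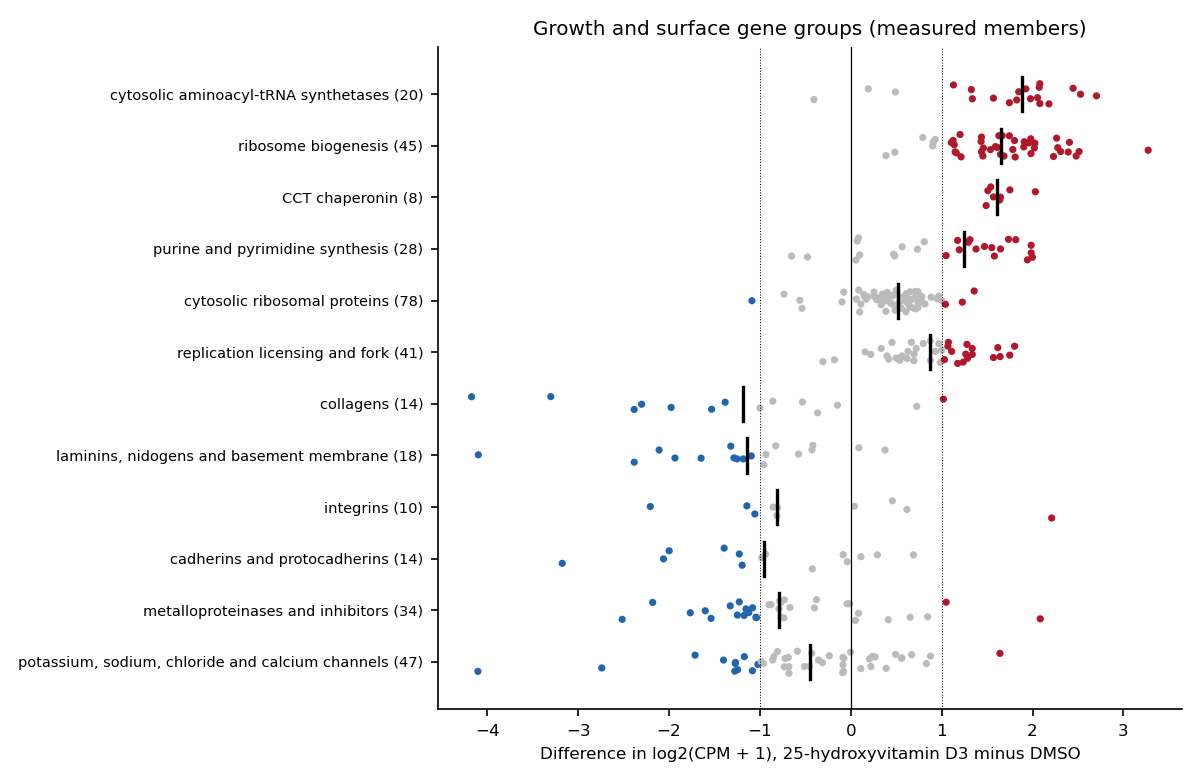
Each point is a measured gene, placed by its difference in log2(CPM + 1), 25-hydroxyvitamin D3 minus DMSO, in 12 groups; black ticks are medians, dotted lines the 2-fold limits, and red and blue points passed them. The medians of the upper 6 groups lie between 0.52 and 1.89 and those of the lower 6 between -1.19 and -0.45 in the main scaling.

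Structural and housekeeping groups differed among themselves. Of 39 lysosome and autophagy genes 2 were higher, the autophagy receptor Nbr1 at 2.53-fold higher (95% interval 2.47 to 2.59) and the transcription factor Mitf at 2.20-fold but short of it under upper quartile scaling and with FPKM, and 0 lower (median -0.11, range -0.25 to -0.10). Among 45 actin cytoskeleton genes 2 were higher and 3 lower (median -0.39, range -0.48 to -0.17). Actg1, cytoplasmic gamma actin, was 2.87-fold higher (95% interval 2.83 to 2.91), while Actb, its beta form, had 3386 CPM with 25-hydroxyvitamin D3 against 2663 CPM in DMSO. Of 18 tubulin genes (median -0.12, range -0.26 to 0.02) 1 passed, the folding cofactor Tbcc at 2.06 CPM with 25-hydroxyvitamin D3 against 6.68 CPM in DMSO, short of 2-fold with a pseudocount of 5. Of 88 splicing factors 13 were higher and 3 lower (median 0.57), or 14.8% and 3.41%, beside 11.6% and 12.2% of all measured genes. Snrpa1, of the U2 particle, was 4.00-fold higher. The serine and arginine rich factors Srsf6, Srsf5 and Srsf9 were 2.39-fold, 2.22-fold and 2.20-fold lower, Srsf9 short of 2-fold with a pseudocount of 5. Among 20 widely expressed genes 2 were higher, Pgk1 at 2.48-fold and Tbp at 2.53-fold, and 0 lower, with Gapdh at 3445 CPM with 25-hydroxyvitamin D3 against 2947 CPM in DMSO and Hprt1 at 69.1 CPM with 25-hydroxyvitamin D3 against 66.4 CPM in DMSO. The share higher among widely expressed genes was 10%, near the 11.6% of all measured genes. The 3 measured histone genes lay between 0.00 and 0.57 (median 0.49, range 0.25 to 0.50).

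Several of the largest differences lay outside these groups. Stc2, a secreted glycoprotein, had 152 CPM with 25-hydroxyvitamin D3, 46.4 with the SREBP inhibitor, 6.63 with the VDR activator and 3.04 in DMSO. Abhd6, a monoacylglycerol hydrolase, had 108 CPM with 25-hydroxyvitamin D3, 12.02 with the SREBP inhibitor, 0.778 with the VDR activator and 1.52 in DMSO. Tenm4, a transmembrane adhesion protein, had 47.1 CPM with 25-hydroxyvitamin D3, 13.1 with the SREBP inhibitor, 0.286 with the VDR activator and 0.737 in DMSO. For these 3 genes the SREBP inhibitor library also lay above DMSO. Ccbe1, a secreted protein needed for lymphatic vessels, was 13.4-fold higher (95% interval 11.9 to 15.04), Tnfrsf12a, the receptor of the cytokine TWEAK, 11.97-fold higher (95% interval 10.8 to 13.3), and Nppb, the precursor of a natriuretic peptide, had 16.1 CPM with 25-hydroxyvitamin D3 against 0.23 CPM in DMSO. Among the lower genes Pcp4l1, a small calmodulin-binding relative of Pcp4, had 0.687 CPM with 25-hydroxyvitamin D3, 25.9 with the SREBP inhibitor, 52.1 with the VDR activator and 72.4 in DMSO. Nod2, a sensor of bacterial cell walls, had 2.31 CPM with 25-hydroxyvitamin D3, 19.0 with the SREBP inhibitor, 30.9 with the VDR activator and 66.0 in DMSO, and Prlh, the prolactin releasing hormone, had 0.491 CPM with 25-hydroxyvitamin D3 against 34.5 CPM in DMSO. Pdzd2, a PDZ domain protein, was 56.4-fold lower and Angpt4, an angiopoietin, had 1.08 CPM with 25-hydroxyvitamin D3, 23.2 with the SREBP inhibitor, 63.2 with the VDR activator and 41.6 in DMSO. Plin4 and Plin2, coat proteins of lipid droplets, went in opposite directions, with 19.9 CPM with 25-hydroxyvitamin D3 against 177 CPM in DMSO and 929 CPM with 25-hydroxyvitamin D3 against 265 CPM in DMSO.

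Measured as CPM rather than ratio, the largest losses were 9 mitochondrial-encoded mRNAs and Ahnak, a giant scaffold protein, with 341 CPM with 25-hydroxyvitamin D3, 1748 with the SREBP inhibitor, 1995 with the VDR activator and 3124 in DMSO. The largest gains included Eef1a1 (11103 CPM with 25-hydroxyvitamin D3 and 6707 in DMSO) and Hspa5, which did not pass 2-fold, beside Hsp90ab1, Txnrd1, Ncl, Hmox1, Actg1, Hspd1 and Rps2, which did, and the elongation factor Eef2 at 3377 CPM with 25-hydroxyvitamin D3 and 1701 in DMSO, just short of it. Genes with at least 100 counts in one library and at most 3 in the other were mostly found in DMSO. The retinol and alcohol dehydrogenase Adh7 had 1 count with 25-hydroxyvitamin D3 and 276 in DMSO, and the decoy receptor Il1r2 had 1 with 25-hydroxyvitamin D3 and 122 in DMSO. Arhgap27, a regulator of small GTPases, had 3 counts with 25-hydroxyvitamin D3 and 287 in DMSO. Cgnl1, Evpl and Lad1, proteins of cell junctions, had 1, 3 and 1 counts with 25-hydroxyvitamin D3 against 121, 172 and 109 in DMSO, and Lrrc15, a membrane protein of matrix contacts, had 2 with 25-hydroxyvitamin D3 against 112 in DMSO. A row described as sulfotransferase 1A1 had 2 counts with 25-hydroxyvitamin D3 against 161 in DMSO. In the other direction a row described as guanylate-binding protein 1 had 170 counts with 25-hydroxyvitamin D3 and 1 in DMSO.

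The limit, which applies to the log2(CPM + 1) scale, fell within a dense run of genes. Just inside on the high side were Ovca2, with 67.6 CPM with 25-hydroxyvitamin D3 against 33.3 CPM in DMSO, and Parn, a deadenylase, with 178 CPM with 25-hydroxyvitamin D3 against 88.5 CPM in DMSO, and just outside were Chaf1b, a histone chaperone, with 28.2 CPM with 25-hydroxyvitamin D3 against 13.6 CPM in DMSO, and Fbxl2, a ubiquitin ligase subunit, with 14.8 CPM with 25-hydroxyvitamin D3 against 6.91 CPM in DMSO. On the low side Als2cl (29.4 CPM with 25-hydroxyvitamin D3 and 59.9 in DMSO) and Znf385a (10.6 CPM with 25-hydroxyvitamin D3 and 22.2 in DMSO) were inside and Ptpre (0.491 CPM with 25-hydroxyvitamin D3 and 1.98 in DMSO) and Dcaf6 (31.9 CPM with 25-hydroxyvitamin D3 and 64.9 in DMSO) outside.

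Across all alternatives of scaling, pseudocount and filter, 435 genes were followed, and 338 of them had passed 2-fold. None of the 338 changed sign. Such a change could hardly occur, because a pseudocount cannot reverse an order of CPM. The scalings moved the median of all genes at most from 0.04 to -0.10. Of the 338, 55 fell short of 2-fold under at least 1 alternative. Upper quartile scaling did so for 16, all on the high side, which were Atf5, Ccnd2, Col8a1, Fh, Fth1, Got2, Hsp90aa1, Hsp90ab1, Mitf, Ovca2, Parn, Psmc4, Psmd14, Rpl22l1, Sdhb and Sulf2. The FPKM values did so for 29, which were Als2cl, Aqp11, Ccnd2, Cgnl1, Chek2, Col8a1, Cxcl12, Esr2, Fh, Fth1, Fzd4, Hspa1a, Il1rl1, Itga7, Itgb4, Jag1, Lmod1, Lrrc15, Ltbp2, Mitf, Ovca2, Parn, Psmd14, Rpl22l1, Scn4a, Sdhb, Spp1, Sulf2 and Tm7sf2. A pseudocount of 5 did so for 44, among them, of the genes with values given above, Als2cl, Atf5, Ccne2, Chek2, Col8a1, Cxcl12, Egr2, Egr3, Ereg, Esr2, Fzd4, Fzd5, Hbegf, Hspa1a, Il1rl1, Kifc2, Lad1, Lrrc15, Mmp10, Ovca2, Parn, Pdk2, Psmd14, Scn4a, Smad7, Spp1, Srsf9, Sulf2, Tbcc, Tgfb1, Tgfb3, Tm7sf2 and Znf385a. Als2cl and Znf385a lost their place inside the limit with each of 3 close variants of the scaling.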

How the data were processed

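RNA of CHO-K1 cells was sequenced in 4 libraries, 1 for each treatment label, and 2 of them were compared here. Per the submitters' processing notes, bcl2fastq version 1 and TopHat2 version 2 were used; which tool counted the reads, on which genome build and annotation, is not given in the sources used here. The authors deposited 1 table with estimated counts and FPKM values per gene row for each library. Of the rows, 16.0% in the 25-hydroxyvitamin D3 library and 15.8% in the DMSO library had a count that was not whole, so the estimated counts were rounded to whole numbers, and 21266 rows were summed to 20754 gene names, of which 479 had several rows. Counts were scaled by TMM over the 4 libraries in edgeR version 4.0.16 (R version 4.3.3), giving factors of 0.955 for 25-hydroxyvitamin D3, 0.997 for the SREBP inhibitor, 1.03 for the VDR activator and 1.02 for DMSO, and all else used Python version 3.11.15, pandas version 2.3.3, SciPy version 1.17.1 and matplotlib version 3.10.9. A gene needed 10 counts and 1 CPM in either library, and differences were taken with a pseudocount of 1. Members passing this minimum through 1 library alone had to differ to some extent, though not by 2-fold, so counts over lists describe measured members only.

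With 1 library per treatment no test was made, and intervals compare libraries, not conditions. The 3 treatments share the DMSO library, so their differences from it are not independent. The calculation was checked on simulated counts with known changes and counting error only, so the check does not bear on the spread between cultures. The 65 gene lists, and the choice of the comparison, were made with earlier results of these data known; 48 list members were found by the description that RefSeq gives their identifier, and Atf3, Slc7a11, Ddit4, Vegfa, Cdkn1a and Sesn2 are examples of genes in more than 1 list. Genes were named by rule: the 15 largest differences in each direction among genes with a symbol and 5 CPM, the 10 largest gains and losses in CPM, the 10 highest FPKM values, the 4 largest differences of each list, genes with at least 100 counts in one library and at most 3 in the other, and those next to the limit. A further 131 list members were named after their values were seen. Alternatives were 5 other scalings, FPKM among them, leaving out mitochondrial-encoded mRNAs, 2 pseudocounts, 2 filters, unsummed rows, genes with a symbol alone and 2 other fold limits. Some genes are not reported here.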

Additional observations from a re-analysis of the deposited data

How the results depend on the processing

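The counts of genes at least 2-fold higher and lower, 1332 and 1403, moved by less than 1.5 times under 12 alternatives for genes higher and under 11 for genes lower. Among these, leaving out the minimum could not change the counts. With a pseudocount of 1, a gene below 1 CPM in both libraries cannot reach the limit. A pseudocount of 5 gave 1019 higher and 830 lower. A limit of 1.5-fold gave 2773 higher and 2709 lower, and a limit of 4-fold gave 161 higher and 279 lower. With upper quartile scaling 37.2% of the genes past the limit were higher, against 48.7% in the main scaling.

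Of the list medians recomputed, 632 moved by at most 0.1, 133 moved by more and 14 changed sign. Upper quartile scaling gave -0.110 for phospholipid and triglyceride synthesis, -0.0667 for the p53 pathway, -0.0236 for the ATP synthase, -0.103 for the immediate early factors and -0.0182 for growth factors and receptors. Equal totals gave -0.0576 for phospholipids, -0.0180 for p53 and -0.0495 for immediate early factors, and FPKM gave -0.0500, -0.00988 and -0.0537 for these lists. Without a minimum the immediate early factors had -0.00969, and a minimum of 5 CPM gave -0.0294 for p53 and 0.0157 for tubulins. All of these medians lay within 0.12 of 0 in the main scaling, and the cause was not tested. Medians farther from 0 kept their sign but some moved by more than 1.5 times. With no minimum they were -0.25 for collagens, -0.15 for integrins, -0.11 for cadherins, -0.70 for basement membrane genes, -0.15 for VDR targets, -0.09 for ion channels and 0.08 for kinesins, against -1.19, -0.81, -0.96, -1.14, -0.67, -0.45 and 0.49 in the main setting, and this alternative adds members of few counts. FPKM gave -0.44 for collagens, -0.48 for integrins and -0.37 for cadherins, and a pseudocount of 5 gave -0.43, -0.49 and -0.37 for these and -0.77 against -1.52 for aquaporins. Genes with a symbol alone gave -0.66 against -1.39 for fatty acid genes and -0.81 against -0.33 for nuclear complex IV.

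No paired analysis was possible because each treatment has 1 library and the groups share a single replicate number. Leaving out a library was not run, as it would remove a treatment. Depth limits genes of few counts, and the spread between cultures is not known.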

Other observations

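Some of the larger differences lay in gene rows that carry a description but no symbol, chosen after their values were seen. Among rows higher with 25-hydroxyvitamin D3, the 2 rows described as 10 kDa heat shock protein, the partner of Hsp60 in the mitochondrial chaperonin, had 135 CPM with 25-hydroxyvitamin D3 against 34.6 CPM in DMSO and 44.9 CPM with 25-hydroxyvitamin D3 against 12.4 CPM in DMSO. Pescadillo homolog and bystin, both factors of ribosome assembly, had 119 CPM with 25-hydroxyvitamin D3 against 36.9 CPM in DMSO and 74.3 CPM with 25-hydroxyvitamin D3 against 21.1 CPM in DMSO. The mitochondrial poly(A) polymerase, which adds tails to mitochondrial mRNAs, had 64.5 CPM with 25-hydroxyvitamin D3, 36.6 with the SREBP inhibitor, 24.0 with the VDR activator and 22.3 in DMSO, and the copper chaperone SCO1 of cytochrome oxidase had 36.4 CPM with 25-hydroxyvitamin D3 against 16.2 CPM in DMSO. Ran, the GTPase of nuclear transport, had 122 CPM with 25-hydroxyvitamin D3, 62.6 with the SREBP inhibitor, 55.3 with the VDR activator and 35.6 in DMSO, and ribosomal protein S6 kinase alpha-2, a kinase downstream of ERK, 104.9 CPM with 25-hydroxyvitamin D3, 54.9 with the SREBP inhibitor, 19.4 with the VDR activator and 17.4 in DMSO.

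Several rows lower with 25-hydroxyvitamin D3 are described as matrix or surface proteins. Tenascin-X-like, a matrix glycoprotein, had 2.01 CPM with 25-hydroxyvitamin D3, 22.2 with the SREBP inhibitor, 20.8 with the VDR activator and 49.7 in DMSO. The 4 rows described as the collagen alpha-1(V) chain had 9.71 to 14.4 CPM with 25-hydroxyvitamin D3 against 78.2 to 121 CPM in DMSO, and may be fragments of 1 gene. Protocadherin gamma-C3 had 21.0 CPM with 25-hydroxyvitamin D3 against 202 CPM in DMSO, and contactin-1, an adhesion protein known from neurons, 16.8 CPM with 25-hydroxyvitamin D3 against 103 CPM in DMSO. Annexin A8, a calcium-dependent membrane-binding protein, had 2.80 CPM with 25-hydroxyvitamin D3, 20.9 with the SREBP inhibitor, 17.6 with the VDR activator and 38.2 in DMSO. Outside the matrix, insulin receptor substrate 1, which relays signals of the insulin receptor, had 3.39 CPM with 25-hydroxyvitamin D3, 12.8 with the SREBP inhibitor, 28.3 with the VDR activator and 30.0 in DMSO, and aldose reductase-related protein 1 had 0.932 CPM with 25-hydroxyvitamin D3, 39.4 with the SREBP inhibitor, 34.5 with the VDR activator and 79.7 in DMSO.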
